A study of Mus musculus with 6 samples.

Results

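Kruppel-like factors (KLFs) are transcription factors that share a C-terminal zinc finger domain, with which they bind GC-rich and CACCC-type sequences in gene promoters. In epidermis they are best known through Klf4, which keratinocytes need to build the skin barrier, and Klf5, which is found in dividing basal keratinocytes. Klf2, Klf6, Klf9 and Klf10 are known as rapidly induced genes that respond to serum, shear, glucocorticoids or TGF-beta. The 9 family members described here, Klf2, Klf3, Klf4, Klf5, Klf6, Klf7, Klf9, Klf10 and Klf13, were chosen by gene symbol, and all 9 were present among the 23337 genes of the table.

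Tumour cells of basal cell carcinoma, a skin cancer driven by Hedgehog signalling, were taken from the ear epidermis of mice. In all 6 libraries the tumours carried 1 copy of SmoM2, an activated mutant of the Hedgehog transducer Smoothened, at the R26 locus, together with K14CreER, a tamoxifen-dependent Cre recombinase driven by the keratin 14 promoter of basal keratinocytes. Tamoxifen was given at 4 weeks of age and the stage label of every library puts cell isolation 6 weeks later, whereas the growth protocol names 6 or 9 weeks without saying which libraries were taken when. The 3 wild-type libraries had the genotype R26-SmoM2/+ K14CreER, and the 3 knockout libraries had the genotype R26-SmoM2/+ Yapfl/fl K14CreER, in which Cre also deletes Yap1, the gene of the Hippo pathway co-activator YAP. The strain background and whether a library stands for 1 animal or a pool are not stated in the labels, and the p-values here therefore reflect only how far these libraries scatter, which may be technical. The comparison of knockout with wild type asked which transcripts depended on YAP in the tumour cells.

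Depth ran from 15405490 to 25260431 reads assigned to genes per library. For Yap1, normalized counts (reads divided by the library's size factor) were 5765, 6004 and 5573 for wild-type and 591, 773 and 1764 for knockout replicates 1, 2 and 3, so knockout library 3 kept the most Yap1 transcript of its group. Label codes beginning with DM22 marked replicates 1 and 2 of both genotypes, and codes beginning with DM24 marked replicate 3 of both. Xist was at 58654 normalized counts or more in both DM24 libraries and at 15.1 or less in the DM22 libraries, so that sex, depth and whatever the codes mark cannot be told apart. All 7 basal keratinocyte markers were at 9878 normalized counts or more in every library. Of the marker genes of other cell types found in the table, a mean under 10 normalized counts was seen for 4 of 5 of T cells, 4 of 8 of endothelial cells, 5 of 8 of macrophages and Langerhans cells, 4 of 6 of pericytes and smooth muscle, and 2 of 7 of fibroblasts. The same held for 3 of 6 of melanocytes, but for 0 of 6 of suprabasal keratinocytes and 0 of 7 of sebocytes. Cd3d and Emcn had no read in any library, and Ptprc reached at most 3.36 normalized counts. Other markers of the same lists were present: Lck at 85.8 to 115, Egfl7 at 64.5 to 116, Pecam1 at 25.9 to 83.2, Cd74 at 75.4 to 523 and H2-Ab1 at 146 to 314. Cspg4 of the pericyte list ranged from 7986 to 10854, Dcn of the fibroblast list from 1127 to 9253 and Scd1 of the sebocyte list from 6464 to 9703. In bulk RNA of this kind, fewer cells of a type and less RNA per cell cannot be told apart.

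Klf6 and Klf4 made up most of the family's transcripts. Per kilobase of merged exon, which allows genes of different length to be compared, Klf6 stood at 4422 ± 2342 normalized counts for wild type against 2597 ± 1410 for knockout (SD, n = 3). Klf4 stood at 3134 ± 194 against 2719 ± 364 (SD, n = 3). Klf6 ranked first in wild type and Klf4 in knockout, but the libraries of the 2 genes overlapped in both groups, so their order was not separated by the spread. Klf13 followed with 585 ± 15.3 and 672 ± 63.7 (SD, n = 3), clear of Klf4 and Klf6 above it and of Klf10 below it in each genotype, but in wild type its range of 572 to 602 lay within that of Klf5, 370 to 615. Klf10 (508 ± 67.6 and 497 ± 54.0, SD, n = 3) and Klf5 (467 ± 130 and 458 ± 82.0, SD, n = 3) overlapped with each other. Klf9, Klf3 and Klf2 came next, with levels per kilobase of 219, 115 and 113 in wild type and 202, 121 and 86.9 in knockout, and within these 3 each overlapped with the next. Klf7 was lowest at 34.0 ± 5.28 and 32.7 ± 7.38 (SD, n = 3), and in knockout its range overlapped with that of Klf2.

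As a share of the 9-gene sum per length, Klf6 took 56.4%, 46.8% and 27.5% of wild-type and 40.1%, 39.0% and 19.8% of knockout libraries, in replicate order. Klf4 took 25.8%, 30.8% and 47.2% in wild type and 33.9%, 33.9% and 46.7% in knockout. Klf6 led in the wild-type and knockout DM22 libraries and Klf4 in both DM24 libraries, and within each same-numbered pair Klf6 had the smaller share in the knockout. With the longest transcript as length in place of all exons, the mean share of Klf3 went from 1.23% to 2.41% in wild type and from 1.74% to 3.34% in knockout. On that length Klf5, at 7.04%, stood above Klf13, at 6.90%, in wild type, so the order of Klf13, Klf10 and Klf5 depends on the length used. The 9 genes together held 0.229%, 0.210% and 0.139% of reads in wild type and 0.186%, 0.172% and 0.110% in knockout.

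**Figure D1:**
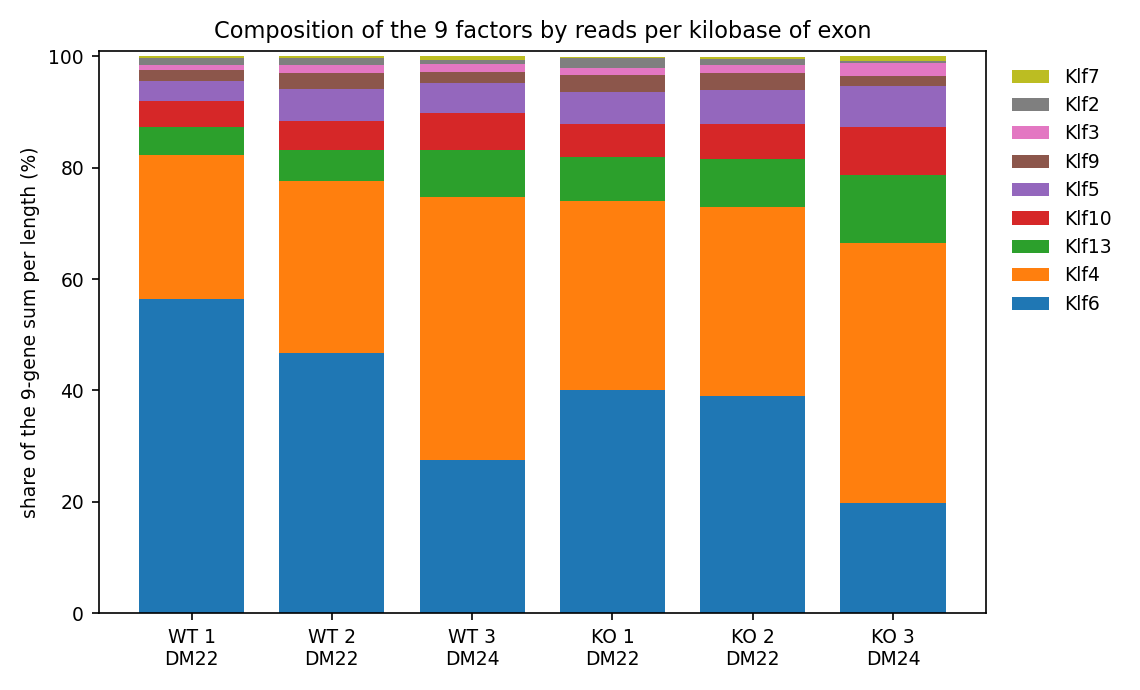
Share of each of the 9 factors in their summed level per kilobase of exon (y axis, percent) in each of the 6 libraries (x axis, WT wild type, KO knockout, with the code series below). Klf6 falls from 56.4% in wild-type library 1 to 19.8% in knockout library 3, and Klf4 takes 46.7% to 47.2% in the DM24 libraries.

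Klf6 had the largest mean difference of the 9 members between the genotypes. KLF6 is a broadly expressed, rapidly induced factor known as a growth suppressor in several tissues. Klf6 (chromosome 13, 5861482 to 5870394, plus strand, protein coding, GRCm38) was counted at 28098, 22100 and 8059 (normalized) for wild-type and 15778, 14110 and 4321 for knockout replicates 1, 2 and 3. The knockout library was lower within each code series, but over all 6 libraries the groups overlapped, because wild-type library 3 lay below knockout libraries 1 and 2. On the log2(normalized count + 1) scale used for all differences here, knockout minus wild type was −0.79 with a standard error of 0.66, or 0.577-fold, and within the 3 same-numbered pairs it was −0.83, −0.65 and −0.90. All 3 pair differences were below 0 for 17.3% of the genes tested. No label states a pairing, and within DM22 pairs 1 and 2 rest on the replicate numbers alone.

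Whether Klf6 passed depended on the test and on what the fit held. Without a term for pairs or code series its adjusted p was 0.987 with limma, 0.98 with edgeR and 1.0 with DESeq2. The Benjamini-Hochberg adjustment was over 13671 genes for limma and edgeR, while DESeq2 can leave some of these out by its default filters. With the replicate number as a block, the adjusted p was 1.2e-10 with DESeq2, 0.205 with limma and 0.232 with edgeR. That block assumes the pairing by number, and the crossed DM22 pairs of libraries also correlated. With the code series as a term it was 9.7e-08 with DESeq2, 0.119 with limma and 0.145 with edgeR. In the 4 DM22 libraries alone the difference was −0.74 ± 0.16 (SE, DESeq2 adjusted p = 0.000541) and −0.74 with limma (adjusted p = 0.278). Leaving out each library in turn from the DESeq2 fit with the series term kept Klf6 below 0.05, with differences from −0.90 to −0.70 and adjusted p from 3.7e-17 to 0.000993. Without either DM24 library, the other was alone in its series and added nothing to the difference. Those fits gave −0.74 like the DM22 libraries alone and are not separate checks. Leaving out 1 library without the series term left the series uneven between the groups, and the limma difference then ran from −1.34 without wild-type library 3 to −0.20 without knockout library 3.

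The start of Klf6 is shown because it is the member on which the genotype comparison turns, and those of Klf9 and Klf2 because these 2 genes were also low in both DM24 libraries. Each sequence runs from 250 bases before to 50 bases after the RefSeq gene start (GRCm38.p6, plus strand, 5′ to 3′), at chr13:5861239-5861538 for Klf6, chr19:23140976-23141275 for Klf9 and chr8:72318812-72319111 for Klf2. Motifs were searched on both strands. The GC box was spelled GGGCGG, the AP-1 motif was spelled TGANTCA, the TATA box was spelled TATAA, and the CACCC and CCAAT boxes by the letters of their names. Capitals mark GC and CCAAT boxes for Klf6, the AP-1 motif with CACCC and CCAAT boxes for Klf9, and GC, CACCC and TATA boxes for Klf2.
Klf6: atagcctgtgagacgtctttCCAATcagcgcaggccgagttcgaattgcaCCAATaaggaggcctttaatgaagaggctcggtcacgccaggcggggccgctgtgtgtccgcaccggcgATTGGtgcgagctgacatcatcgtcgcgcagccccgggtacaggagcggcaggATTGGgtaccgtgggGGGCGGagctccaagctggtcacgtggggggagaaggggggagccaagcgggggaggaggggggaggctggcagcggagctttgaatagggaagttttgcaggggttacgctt
Klf9: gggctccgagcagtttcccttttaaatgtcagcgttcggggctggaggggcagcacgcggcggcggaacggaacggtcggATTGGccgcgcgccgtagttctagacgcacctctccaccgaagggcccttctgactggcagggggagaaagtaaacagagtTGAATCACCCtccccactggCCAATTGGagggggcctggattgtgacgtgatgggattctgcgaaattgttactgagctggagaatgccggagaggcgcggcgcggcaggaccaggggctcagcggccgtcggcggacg
Klf2: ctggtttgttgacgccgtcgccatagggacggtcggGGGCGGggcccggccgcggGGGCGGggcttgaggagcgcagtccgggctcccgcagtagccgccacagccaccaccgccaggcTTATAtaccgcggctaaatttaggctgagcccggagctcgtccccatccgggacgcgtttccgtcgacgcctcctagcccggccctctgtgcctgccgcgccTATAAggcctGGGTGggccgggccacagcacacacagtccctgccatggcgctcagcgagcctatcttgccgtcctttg

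Of the 9 members, 7 had a RefSeq window, all except Klf5 and Klf10. The Klf6 window held 4 CCAAT boxes and 1 GC box, and CCAAT was present in 3 of the 7 windows against 37.4% of all 32544 windows of the same length. GC boxes were present in 6 of the 7 windows, against 35.9% of all windows, and the CACCC box in 5 of the 7, against 57.7%. The TEAD motif (GGAATG), the letters bound by YAP's DNA-binding partners, was in 0 of the 7 windows and in 14.6% of all windows. The AP-1 motif, with any base allowed in the middle, was in 1 of the 7 and in 7.79% of all windows. In that window, of Klf9, it reads TGAATCA and overlaps a CACCC box. The stricter spellings TGACTCA and TGAGTCA were in 0 of the 7. The CArG box of serum response factor was in 0 of the 7 windows, against 1.64%, and the TATA box in 2 of the 7, against 24.8%. The GC content of the 3 windows printed was 63.0% for Klf6, 63.3% for Klf9 and 69.3% for Klf2, and the median over all windows was 53.0%. It was 76.7% for Klf3, 74.3% for Klf4, 72% for Klf13 and 58.3% for Klf7, so all 7 windows were richer in GC than that median. The motif shares over all windows were not matched for GC content. These matches describe the letters of the windows only.

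Klf13 was the only member above 0 in all 3 pairs, by a small amount. KLF13 is a short KLF with repressor activity that recruits the SIN3A co-repressor. Klf13 (chromosome 7, 63886351 to 63938915, minus strand) was counted at 4366, 4531 and 4309 for wild type against 5286, 5392 and 4513 for knockout, in replicate order. The DM22 knockout libraries were higher than every wild-type library, while knockout library 3 lay just under wild-type library 2, so the groups overlapped. Knockout minus wild type came to 0.20 ± 0.09 (SE, log2), with 0.28, 0.25 and 0.07 for the 3 pairs, a sign pattern that 15.3% of genes shared. It did not pass limma (adjusted p = 0.909 without a term, 0.516 with the block, 0.368 with the series) or DESeq2 (0.77, 0.819 and 0.243). Without knockout library 3, the one with the most Yap1 of its group, DESeq2 without a term gave 0.28 with an adjusted p of 0.0026, in a fit that kept the DM24 wild-type library alone. Without the same library limma gave an adjusted p of 0.419, and DESeq2 with the series term gave 0.27 with an adjusted p of 0.249. DESeq2 on the DM22 libraries, which alone set the difference in that series fit, gave 0.27 with an adjusted p of 0.17.

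Klf4 and Klf5, the members most tied to keratinocyte differentiation and basal growth, gave differences that did not pass the test. Klf4 (chromosome 4, 55527143 to 55532466, minus strand) was counted at 8935, 10113 and 9614 for wild type against 9270, 8518 and 7085 for knockout. The lowest value was that of knockout library 3, and the groups overlapped. Its log2 difference was −0.21 ± 0.12 (SE, limma adjusted p = 0.933), with 0.05, −0.25 and −0.44 in the 3 pairs. Klf5 (chromosome 14, 99298691 to 99315036, plus strand) was counted at 2167, 3198 and 1922 for wild type against 2641, 2617 and 1890 for knockout, of which all but the lowest lay within the wild-type range. Its log2 difference was −0.01 ± 0.23 (SE, limma adjusted p = 1.0).

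Genes of the barrier programme in which KLF4 is known to act gave these values beside it. Of the 19 tested suprabasal and barrier genes, 12 lay above 0 and 7 below, with a median log2 difference of 0.22 beside a median of 0.00 over all genes, and 0 passed limma, edgeR or DESeq2 without a term. They summed to 35449, 48186 and 57929 normalized counts for wild type against 35005, 41757 and 119811 for knockout. The DM24 library had the highest sum in each genotype. Knockout library 3, with the highest sum of all and Krt1, a suprabasal keratin, at 54564 against 6938 to 18834 elsewhere, also had the least Klf4. Krt1 and the keratin gene Krt10, at 30022 in that library, held much of its sum. Between the code series the list's median was 1.17, with 12 of the 19 genes higher in DM24 without overlap (19.0% of all genes), 6 called higher by limma (2.68% of all genes) and 12 by DESeq2 (6.77% of all genes). Calml3, a calmodulin-like gene, had the largest difference of the list at 1.08 ± 0.53 (SE, limma adjusted p = 0.925), and the cornified envelope gene Lor had 170 ± 45.1 normalized counts for wild type against 93.3 ± 53.8 for knockout (SD, n = 3, limma adjusted p = 0.919). Unlike the list's sum, Lor was lowest in knockout library 3, at 44.3 against 84.7 to 222 elsewhere. Of the 16 epidermal differentiation transcription factors, 10 lay above 0 and 6 below with a median of 0.06, and 0 passed. Ovol1 had 0.30 ± 0.43 and Grhl3, an activator of barrier genes, 0.22 ± 0.74 (SE).

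The rapidly induced members Klf2, Klf9 and Klf10 did not pass any genotype test, and all 3 changed sign between pairs. Klf2, an endothelial and lymphocyte quiescence factor (chromosome 8, 72319033 to 72321656, plus strand), was counted at 260, 264 and 104 for wild type against 271, 174 and 36.7 for knockout. Both DM24 libraries were below all DM22 libraries, and the lowest was knockout library 3. The genotype difference was −0.67 ± 0.79 (SE, limma adjusted p = 0.995), with 0.06, −0.60 and −1.48 in the 3 pairs, and it turned to 0.17 without knockout library 3. The 8 endothelial markers summed to 144 to 207 normalized counts over the wild-type and 161 to 214 over the knockout libraries, with the highest sum for knockout library 3, where Klf2 was lowest. Single markers differed in that library, where Egfl7 was at its lowest, 64.5, and Plvap at its highest, 41.7. The 5 T cell markers in the table summed to 85.8 to 116 over the wild-type and 87.2 to 112 over the knockout libraries, nearly all of it from Lck, and both DM24 libraries had the lower sums, 85.8 and 87.2. The part of these cells in the Klf2 values was not tested.

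Klf9, a glucocorticoid-responsive factor known to restrain keratinocyte proliferation (chromosome 19, 23141226 to 23168134, plus strand), was counted at 1063, 1481 and 620 for wild type against 1315, 1176 and 420 for knockout. Both DM24 libraries were again the lowest. Its genotype difference was −0.20 ± 0.52 (SE, limma adjusted p = 0.999), with 0.31, −0.33 and −0.56 in the 3 pairs. Klf10, a TGF-beta-inducible early gene (chromosome 15, 38291463 to 38300706, minus strand), was counted at 2187, 2365 and 1812 for wild type against 2247, 2167 and 1822 for knockout, a difference of −0.03 ± 0.13 (SE, limma adjusted p = 0.999), with 0.04, −0.13 and 0.01 in the 3 pairs. The 2 remaining members also overlapped between the genotypes. Klf3, a repressor that recruits CtBP (chromosome 5, 64803388 to 64832901, plus strand), was counted at 1192, 1666 and 1029 for wild type against 1424, 1330 and 1318 for knockout, a difference of 0.10 ± 0.18 (SE, limma adjusted p = 0.999). Klf7 (chromosome 1, 64029447 to 64122282, minus strand), a factor known from neuronal and adipose development, was counted at 258, 245 and 325 for wild type against 236, 227 and 335 for knockout, a difference of −0.07 ± 0.20 (SE, limma adjusted p = 0.999).

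**Figure D2:**
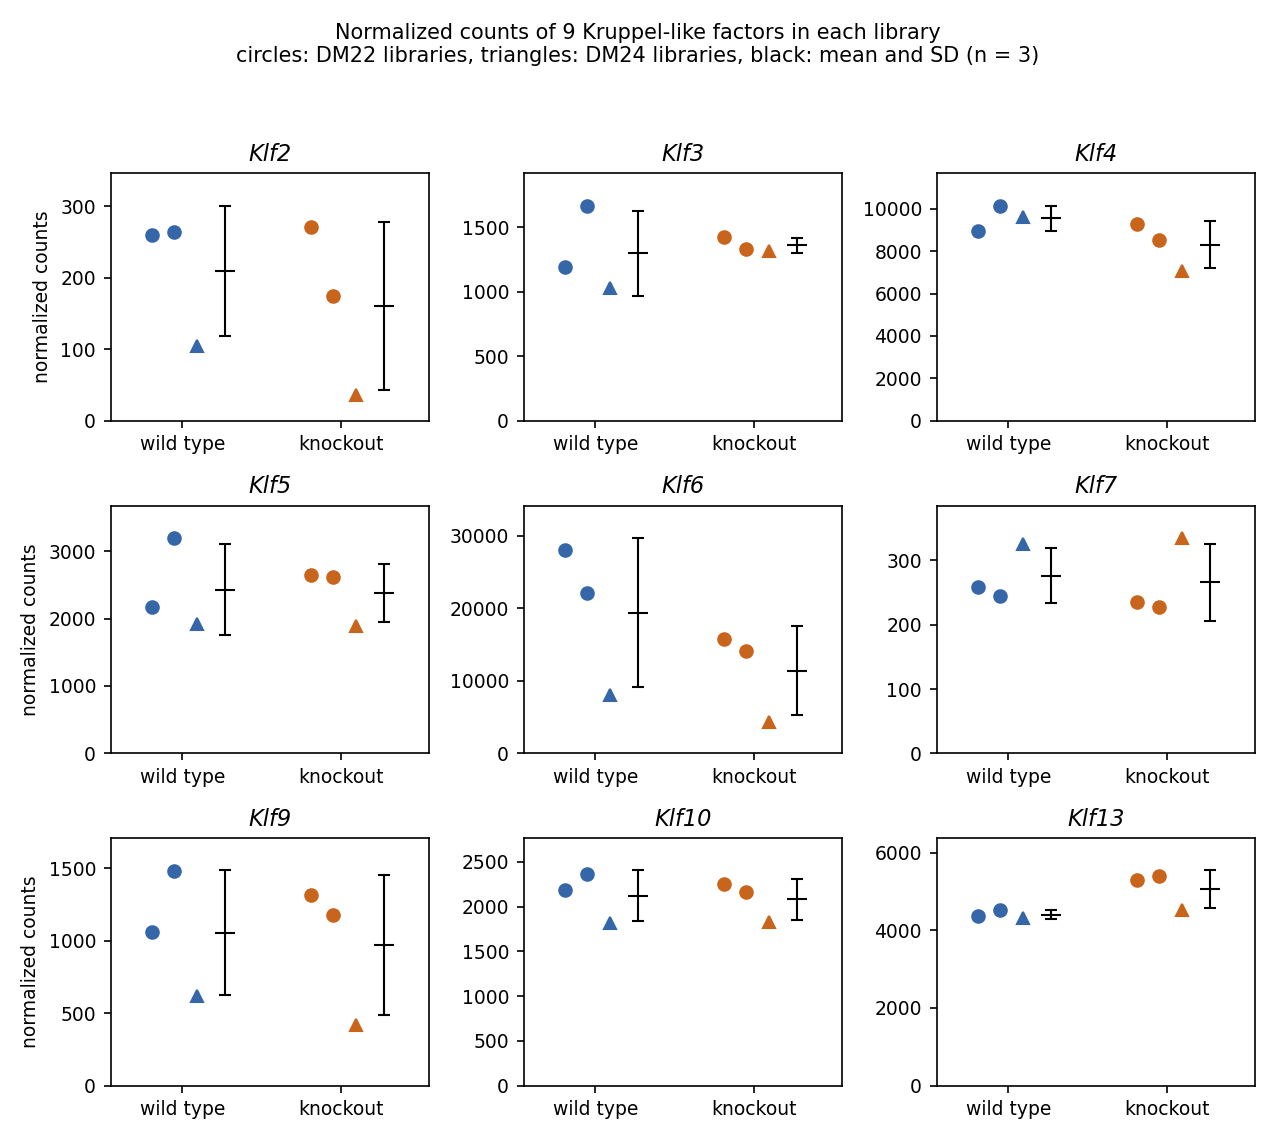
Normalized counts (y axis, from 0) of each factor in the wild-type and knockout libraries (x axis), with circles for the DM22 and triangles for the DM24 libraries and black bars for the mean ± SD (n = 3). For Klf6 the triangle lies far below the circles in both genotypes (8059 and 4321), and the knockout points lie below the wild-type points of the same shape.

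Over the 9 members, 7 had a log2 difference below 0 and 2 above, with a median of −0.07, and the genotypes overlapped for all 9. Of all genes tested, 5.87% had every knockout library below every wild-type library and 5.08% had every one above. Limma called 0 of 9, and 0% of all genes, whether or not pairs or series were held. At an unadjusted p under 0.05 and with no term, limma had 0 of the 9 (5.55% of all genes), edgeR had Klf13 alone (5.60% of all genes) and DESeq2 had Klf13 alone (6.08% of all genes). DESeq2 called 0 of 9 without a term (0.490% of all genes), and Klf6 alone with the block (1.24% of all genes) and with the series (2.22% of all genes). EdgeR called 0 of 9 in each design, and 0% of all genes.

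**Figure D3:**
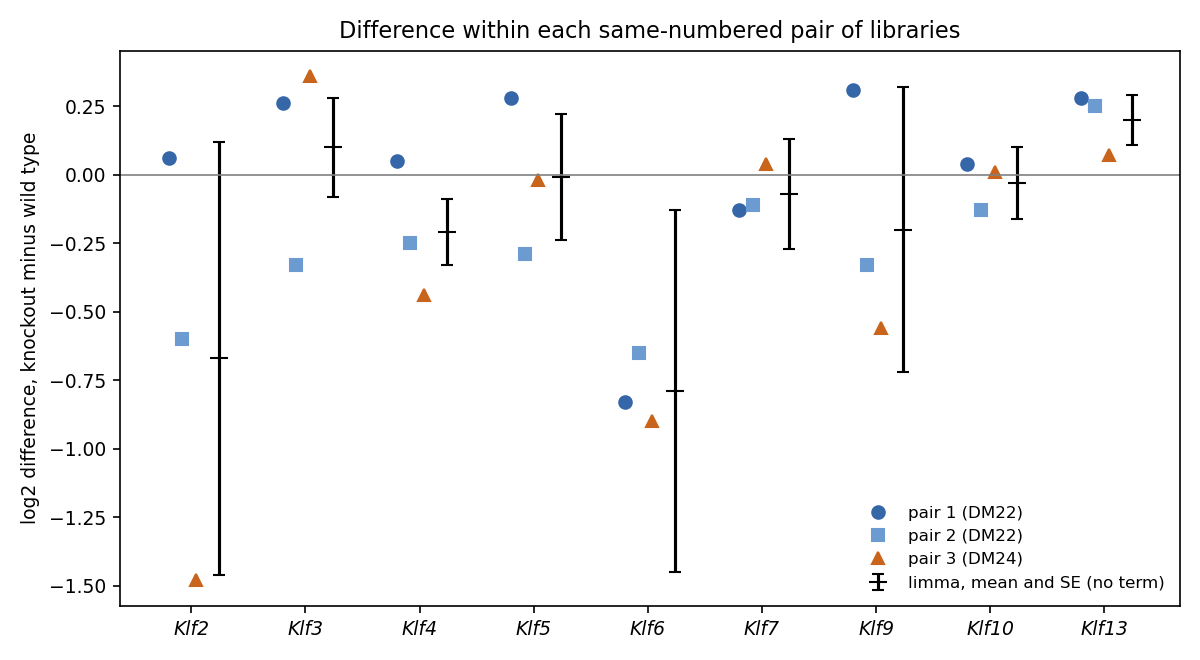
Log2 difference, knockout minus wild type (y axis), of each factor (x axis) within the 3 same-numbered pairs of libraries, with the limma mean ± SE of the fit without a term in black. The 3 points of Klf6 lie together at −0.83, −0.65 and −0.90, while those of Klf2 spread from 0.06 to −1.48.

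Klf2, Klf6 and Klf9 were each far lower in the DM24 libraries than in the DM22 libraries. With genotype held, limma called 4 of the 9 members lower in the DM24 libraries, Klf2, Klf6, Klf9 and Klf10, and 0 higher, against 4.07% of all genes called lower and 2.68% called higher (6.75% in all). Klf2 differed by −1.93 ± 0.32 (SE, limma adjusted p = 0.0336), Klf6 by −1.71 ± 0.12 (SE, limma adjusted p = 0.00317), Klf9 by −1.29 ± 0.18 (SE, limma adjusted p = 0.0251) and Klf10 by −0.30 ± 0.06 (SE, limma adjusted p = 0.0477). For 5 members all DM24 values lay below all DM22 values, as for 20.2% of genes, and Klf7 was the 1 member with the reverse, as for 19.0% of genes. Klf7 had 0.45 ± 0.11 (SE, limma adjusted p = 0.0624). Together 6 of 9 did not overlap, against 39.2% of all genes. Klf3, Klf4 and Klf13 overlapped between the series. EdgeR called 3 of the 9 (6.82% of all genes), without Klf10, and DESeq2 called 6 (15.0% of all genes), adding Klf5 as lower and Klf7 as higher. These calls rest on 2 DM24 libraries: the count was 0 without knockout library 3, 1 without each of wild-type library 3, knockout library 1 and knockout library 2, 5 without wild-type library 1 and 4 without wild-type library 2.

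The genotype difference of Klf2 was more negative in the DM24 pair than in the DM22 libraries by 1.21 on the log2 scale (−1.21 ± 0.45, SE), which did not pass the test of that difference (limma adjusted p = 0.867 for the interaction of genotype and code series). Limma called 0 members and 0% of all genes for this interaction, with 5.47% of genes and Klf2 as the 1 member at an unadjusted p under 0.05, and edgeR (0% of all genes) and DESeq2 (0.263% of all genes) also called 0 members. For Klf6 the interaction was −0.16 ± 0.25 (SE, limma adjusted p = 0.942).

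Of the 17 other KLF and SP genes, 11 passed the filter at a mean of 10 normalized counts, 7 with a genotype difference below 0 and 4 above, with a median of −0.11, and 0 passed in any design by limma, edgeR or DESeq2. Per kilobase of exon, Sp3, a widely used promoter factor, had the highest level of this group at 815 to 1068 normalized counts, followed by Sp1 at 497 to 678, whose range overlapped that of Klf16 at 312 to 516. Klf11, a TGF-beta-inducible relative of Klf10, and Klf15, a glucocorticoid-responsive KLF, differed between the series by −1.18 ± 0.12 (SE, limma adjusted p = 0.0121) and −1.25 ± 0.16 (SE, limma adjusted p = 0.0174), and their genotype differences were −0.25 ± 0.46 and −0.21 ± 0.50 (SE). On the same scale Klf11 ranged from 126 to 395, Sp2 from 190 to 246, Klf15 from 53.9 to 163 and Sp4 from 54.3 to 104, and Sp6, Klf8, Klf1 and Klf12 stayed between 2.23 and 46.7. Klf14, Klf17, Sp5, Sp7, Sp8 and Sp9 had 1 to 21 reads over all 6 libraries and were not tested. Klf14 had 0 reads in the 3 wild-type libraries, which allows up to 2.52 to 3.90 normalized counts in a library, and 11 reads in the 3 knockout libraries.

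**Figure D4:**
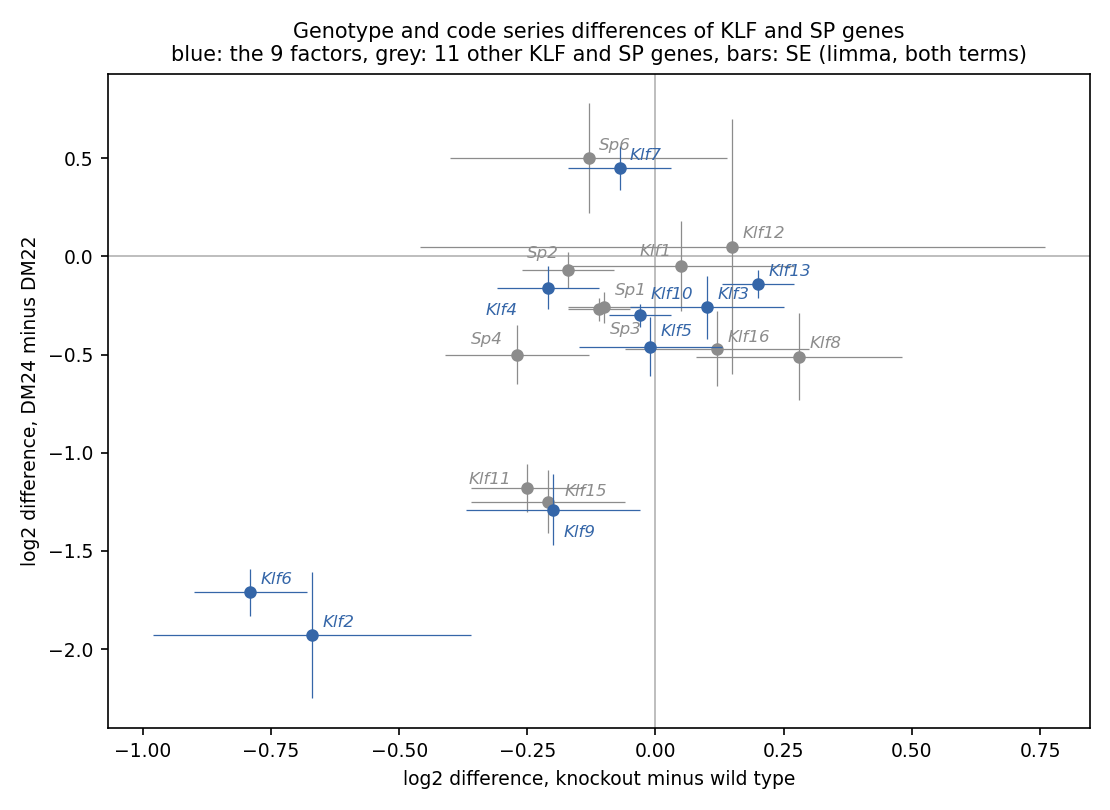
Log2 difference between genotypes (x axis) and between code series (y axis) for the 9 factors (blue) and 11 other tested KLF and SP genes (grey), with limma standard errors from the fit holding both terms. Klf6 and Klf2 lie lowest on both axes, and Klf9, Klf11 and Klf15 lie together at −1.29 to −1.18 between the series.

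Genes of pathways that control KLFs, or act with them, were read from the same fit. Limma and edgeR called 0 genes of these lists in any genotype design, and DESeq2 called 1 of 9 glucocorticoid genes lower with the series (1.46% of all genes called lower) and 1 of 11 MRTF and SRF targets lower with the block (0.819% of all genes called lower). Of the 11 KLF co-regulators, 7 lay above 0 and 4 below with a median of 0.01. The SIN3 complex subunit Sap30 had −0.36 ± 0.10 (SE, limma adjusted p = 0.722) and the acetyltransferase Kat2b −0.20 ± 0.12 (SE). Of the 10 enzymes known to mark KLF proteins for turnover or to counter it, 9 lay below 0 with a median of −0.07, and the F-box gene Fbxo32 had −0.50 ± 0.28 (SE, limma adjusted p = 0.933) and Vhl −0.21 ± 0.13 (SE). The ERK5 and MEF2 axis, known to induce Klf2 and Klf4, had 5 of 7 tested genes above 0 with a median of 0.08. Map3k3 had −0.15 ± 0.12 and Mef2d 0.12 ± 0.16 (SE). The glucocorticoid receptor and its targets had 6 of 9 below 0 with a median of −0.15, and between the series all 9 lay below 0 with a median of −0.99 and 6 were called lower by limma, against 4.07% of all genes. Per1 had a genotype difference of 0.34 ± 0.47 and Dusp1 one of −0.45 ± 0.49 (SE). Of 11 tested targets of MRTF and SRF, which are cytoskeletal genes and Srf itself, 8 lay below 0 with a median of −0.18. Srf is also in the immediate early list below, as is Dusp1 of the glucocorticoid list. Myl9 had −0.97 ± 0.31 (SE, limma adjusted p = 0.8) and Cnn1 −0.81 ± 0.96 (SE).

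Immediate early genes, known to be induced within minutes by many stimuli including tissue dissociation, were low in the same libraries as Klf6. The list was chosen with earlier results of these data known, so its counts describe and do not test. All 21 of the list had genotype differences below 0, with a median of −0.58, and with medians of −0.18, −0.41 and −1.17 in the 3 pairs. The median was thus furthest below 0 in the DM24 pair, with 1 library of each genotype, and −0.58 was not a common amount over the pairs. In pair 1 the list's median was −0.18 while Klf6 had −0.83, and in pair 3 it was −1.17 while Klf6 had −0.90. The median does not stand for each gene of the list. Jun, 1 of the 21, had the profile nearest to that of Klf6 among the genes searched. Between the series 20 of the 21 lay below 0, with a median of −1.56, and 15 were called lower by limma, against 4.07% of all genes. They summed to 464240, 550194 and 213138 normalized counts for wild type against 399329, 380050 and 90840 for knockout. Maff had a genotype difference of −0.96 ± 0.40 (SE, limma adjusted p = 0.894) and Egr1 one of −0.89 ± 0.92 (SE, limma adjusted p = 0.993), and DESeq2 with the block gave them adjusted p = 1.4e-07 and 1.8e-05. With that block DESeq2 called 5 of the 21 lower (0.819% of all genes), and 7 with the series (1.46% of all genes). For the interaction of genotype and code series it called 6, all more negative in the DM24 pair, while limma and edgeR called 0. Of all genes, DESeq2 called 0.263% for the interaction in either direction. The interaction rests on 1 DM24 library of each genotype. The part of the immediate early genes in the Klf6 difference was not tested.

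Over the 6 libraries, the gene with the profile most like that of Klf6 was Jun. Likeness was the mean absolute difference between the log2 deviations of the 2 genes from their own means. It was taken for the 3 members whose values spanned at least 1 log2 unit, over 10964 genes whose mean normalized count was 50 or more. Unnamed predicted genes, such as those with Gm numbers or names ending in Rik, were left out. Jun, the gene of the AP-1 subunit c-JUN, belongs to the immediate early list above. It was counted at 90055, 84606 and 26950 for wild type against 51124, 49902 and 14634 for knockout. Its distance from Klf6 was 0.0712, against a median of 0.761 over all candidates. Next came the small GTPase gene Rhob (0.0885), at 9410, 7826 and 2402 for wild type against 4722, 4241 and 1411 for knockout, and the proton pump gene Atp12a (0.115). Klf9 was nearest to the TNF ligand gene Tnfsf9 (0.0666), the protocadherin gene Pcdh20 (0.0813) and the BMP target Id3 (0.0938), with a median of 0.573 over all candidates. Klf2 was nearest to the immediate early genes Atf3 (0.161) and Egr2 (0.172) and to the small GTPase gene Gem (0.186), with a median of 0.855. These distances describe 6 libraries that share the split by code series and carry no test.

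**Figure D5:**
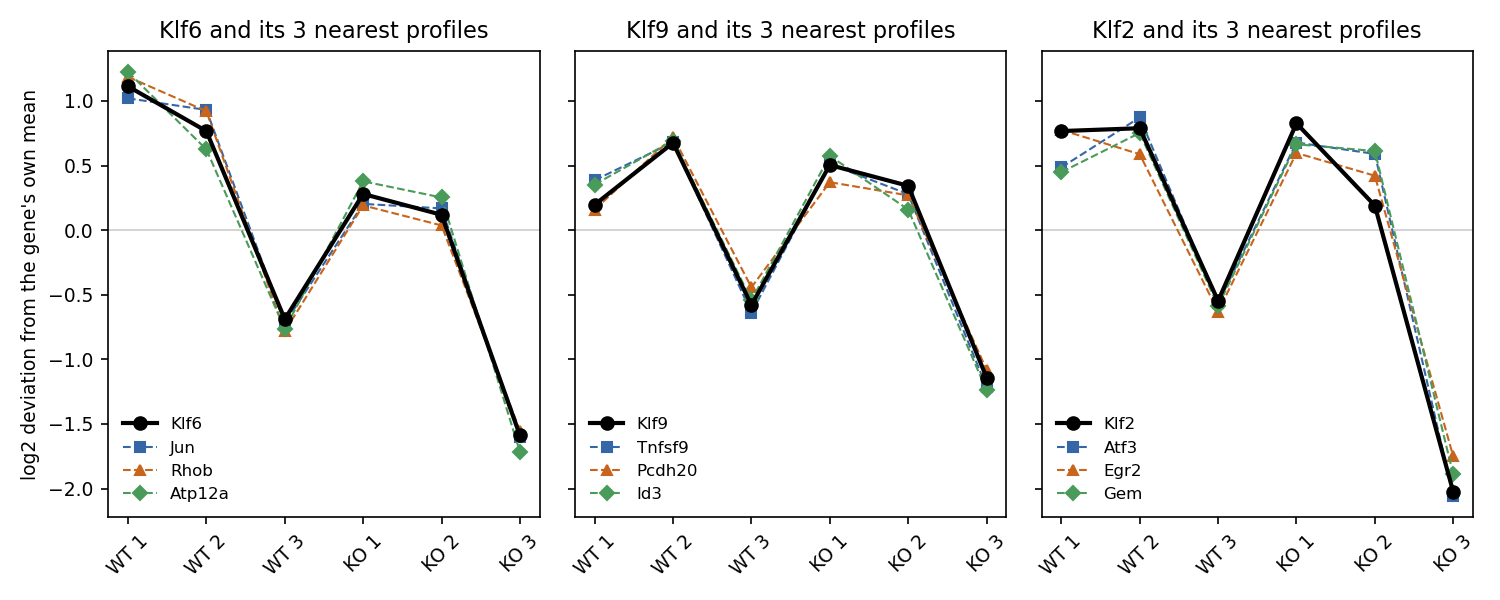
Log2 deviation from the gene's own mean (y axis) in each library (x axis) for Klf6, Klf9 and Klf2 (black) and the 3 genes nearest to each (coloured, dashed), with lines to guide the eye. Jun, Rhob and Atp12a follow Klf6 through a step down at both DM24 libraries and a lower level in the knockout.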

How the data were processed

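The authors deposited 1 table of normalized counts, a signal in which each library's reads were scaled by its size factor. STAR 2.5 and DESeq2 1.18.1 with mm10 (GRCm38) were named, per the submitters' processing notes. The counter, annotation and strand setting are not given in the sources used here. The library kit (TruSeq v2, per the labels' protocols) does not mark strand, so antisense and overlapping genes cannot be told apart. All values (100%, tolerance 0.001 reads) were whole multiples of 1 step per library, so reads were recovered. Size factors ran from 0.769 to 1.21.

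The 13671 genes whose mean normalized count was 10 or more were tested with limma 3.58.1 (R 4.3.3; trend, robust prior) on log2(normalized count + 1), two-sided, with Benjamini-Hochberg at 0.05. Recovered reads went into the quasi-likelihood test of edgeR 4.0.16 with TMM factors and into DESeq2 1.42.0, and all fits were tested on simulated data. DESeq2 kept its default filters, which can leave genes out of its adjustment. An exact permutation test of 3 against 3 cannot go below p = 0.1 and was not run. Deviations from the group means correlated by 0.333, 0.327 and 0.694 in same-numbered libraries, all over 0.1, and the numbers were taken as pairs. The crossed DM22 pairs also passed 0.1, at 0.505 for knockout 1 with wild type 2 and 0.26 for knockout 2 with wild type 1. The check thus separated the code series but not the pairs within DM22, where pairs 1 and 2 rest on the replicate numbers alone. Exon lengths and coordinates came from GENCODE M21 and start windows from RefSeq (GRCm38.p6). Of 188 listed genes, 183 matched by symbol.

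The members and gene lists were chosen with earlier results of these data known. Named were Yap1, the members, the other KLF and SP genes, of each list the calls by limma or else the 2 largest differences at a mean of at least 50, and the 3 nearest profiles of members spanning at least 1 log2 unit. Krt1, Krt10, Xist and the single markers of other cell types were named after their values were seen. The alternatives changed the pseudocount, filter, scaling, tool, block, series term and libraries.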

Additional observations from a re-analysis of the deposited data

How the results depend on the processing

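With genotype compared, pseudocounts of 0.5 and 5, no filter or a mean of at least 50, quantile or TMM scaling and limma without trend left 0 members called. Limma called 0 genes, DESeq2 67, DESeq2 with the replicate block 169 and with the code series 303, the last 2 with 1 member, Klf6; edgeR with the replicate block called 0. The block changed no other member's call. Restricted to the DM22 libraries, the counts were 2 genes for limma and 267 for DESeq2, the latter with 1 member. Leaving out each library in turn gave 0 to 499 genes and 0 to 1 members over limma, DESeq2 and DESeq2 with the series, the last added after seeing the data. Small uncalled differences changed sign: Klf3 to −0.03 (limma) and −0.04 (DESeq2) in the DM22 libraries, and Klf5 to 0.00 under quantile scaling. When 1 library was left out, Klf2 ran from −1.25 to 0.17, Klf3 from −0.07 to 0.29, Klf5 from −0.17 to 0.22, Klf7 from −0.25 to 0.08, Klf9 from −0.53 to 0.33 and Klf10 from −0.14 to 0.07. Between the code series DESeq2 called 2056 genes, against 923 with limma, which gave 40 to 1492 genes and 0 to 5 members without 1 library, and Klf4 ran from −0.33 to 0.02. The interaction had 36 genes with DESeq2 and 0 with limma. The cause was not tested. The limits are the number of DM24 libraries, 2, and a depth at which 3 reads equal 2.47 to 3.90 normalized counts.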
